A study of Mus musculus with 4 samples.

Results

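Titin, encoded by Ttn, was measured as 1 locus among the 35299 loci of a table of long RNA from adult mouse heart. The locus was chosen by position, as the one at mm9 chromosome 2, 76541034 to 76820604 on the minus strand, together with its transcript models and any locus overlapping it on either strand. It spans 279.6 kb and holds 15 transcript models, and 0 other loci overlapped its interval on either strand. The 4 libraries form 1 group, called Sham by their labels. Each came from heart of C57BL/6J mice, 12 weeks old and 2 weeks past a sham operation, at the site corresponding to an infarct border, and all 4 share these conditions. The description of replicate 4 leaves out the word sham that its title, source and treatment carry, and the library names 3RL, 7LR, 8R and 12RL are tied to no replicate number. With 1 group, levels, spread and structure are described and no group is tested against another.

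Titin is the giant filament protein of striated muscle that runs from the Z-disc to the M-band of the sarcomere. Its I-band part acts as a molecular spring, built of immunoglobulin domains and of a stretch rich in proline (P), glutamate (E), valine (V) and lysine (K), the PEVK region. Alternative splicing sets the length of this spring. Cardiac muscle makes a short, stiff form called N2B, which carries a heart-specific unique sequence, and longer forms called N2BA, which carry that sequence together with further I-band segments. The N2-A form of skeletal muscle has the long spring without the unique N2B sequence. RBM20 is a splicing regulator known to repress inclusion of many titin I-band exons in heart.

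The name of the locus was checked by structure, since the models carry UCSC identifiers and no symbols. The longest model has 313 exons and 101674 spliced bases. It was set against the GENCODE M21 transcript Ttn-205, also of 313 exons and 101674 bases, by the widths of its introns and of the exons between them, without carrying a coordinate from one build to the other. Of 623 widths, 621 were equal. The 2 that differed were exons 307 and 308, which have 5459 and 150 bases in the model and 5448 and 161 in GENCODE. A UCSC model of 192 exons matched Ttn-201 in 379 of 381 widths. GENCODE links Ttn-201 and Ttn-204 to RefSeq transcripts known as the N2-B and N2-A forms. Exon numbers below count from the 5′ end of the 313-exon model.

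The finding of interest in the models is which I-band exons are joined to which, so the junctions are shown first. Each line gives the last 30 bases of the upstream exon in lower case and the first 30 bases of the downstream exon in capitals, 5′ to 3′ on the coding strand, from GENCODE M21 transcripts on GRCm38.
exon 45 to exon 46: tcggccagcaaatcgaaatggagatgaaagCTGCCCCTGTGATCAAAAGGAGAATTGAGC
exon 45 to the 2646-base exon: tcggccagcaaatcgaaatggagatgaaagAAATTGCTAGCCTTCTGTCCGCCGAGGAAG
exon 46 to exon 47: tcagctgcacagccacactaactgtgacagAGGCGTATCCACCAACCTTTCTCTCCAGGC
exon 46 to exon 168: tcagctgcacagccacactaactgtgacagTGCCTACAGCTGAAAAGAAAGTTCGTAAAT

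The first pair of junctions is the choice of leaving out or including an exon of 2646 bases at mm9 chr2:76745365-76748010, between exons 45 and 46. It is the unique exon of the N2-B transcript Ttn-201 and is absent from Ttn-205. It encodes 882 codons and keeps the reading frame. The second pair is the choice of running on from exon 46 into exon 47 or of passing over exons 47 to 167. That block covers 82.5 kb at mm9 chr2:76659173-76741683, and its 121 exons hold 22251 bases, a whole number of 7417 codons.

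The 5 models of over 100 exons combined these choices in 3 ways. The 313-exon UCSC model leaves out the 2646-base exon and includes the whole block, the arrangement of N2-A titin. The 192-exon UCSC model includes the 2646-base exon and leaves out the whole block, the arrangement of N2-B titin. It also lacks exon 11, of 138 bases. Among the models assembled from reads, one of 155 exons, which starts inside exon 37, has the N2-B arrangement. It contains the 2646-base exon and leaves out the same 121 exons, and further on exon 312. An assembled model of 270 exons and 95861 bases has both elements, with the 2646-base exon and 111 of the 121 block exons, as is known of N2BA titin. It leaves out exons 152 to 154 and 156 to 162, which together hold 804 bases, and adds an exon of 87 bases after exon 155. The same omissions and the same added exon are found in a UCSC model of 34 exons. An assembled model of 123 exons joins exon 45 directly to exon 46 and runs through the first 106 block exons, as in the N2-A arrangement. After exon 152 it has exons of 84, 75, 81, 84, 84 and 50 bases that the 313-exon model lacks. It ends with them at 76674022, within the PEVK-coding stretch. A UCSC model of 11 exons has the same added exons and the same end.

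No UCSC model of the locus joined the 2646-base exon to block exons. Of the 25 Ttn transcripts in GENCODE M21, 2 contain an exon of that width, Ttn-201 with 0 block exons and Ttn-203, of 347 exons, with 116. The models are pooled over the series, so they do not show which heart used which junction or how often. Reads were paired and 100 bases long, too short to join exons that lie far apart in the RNA, so the combination of distant exons on 1 molecule is the assembler's and was not measured.

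**Figure D1:**
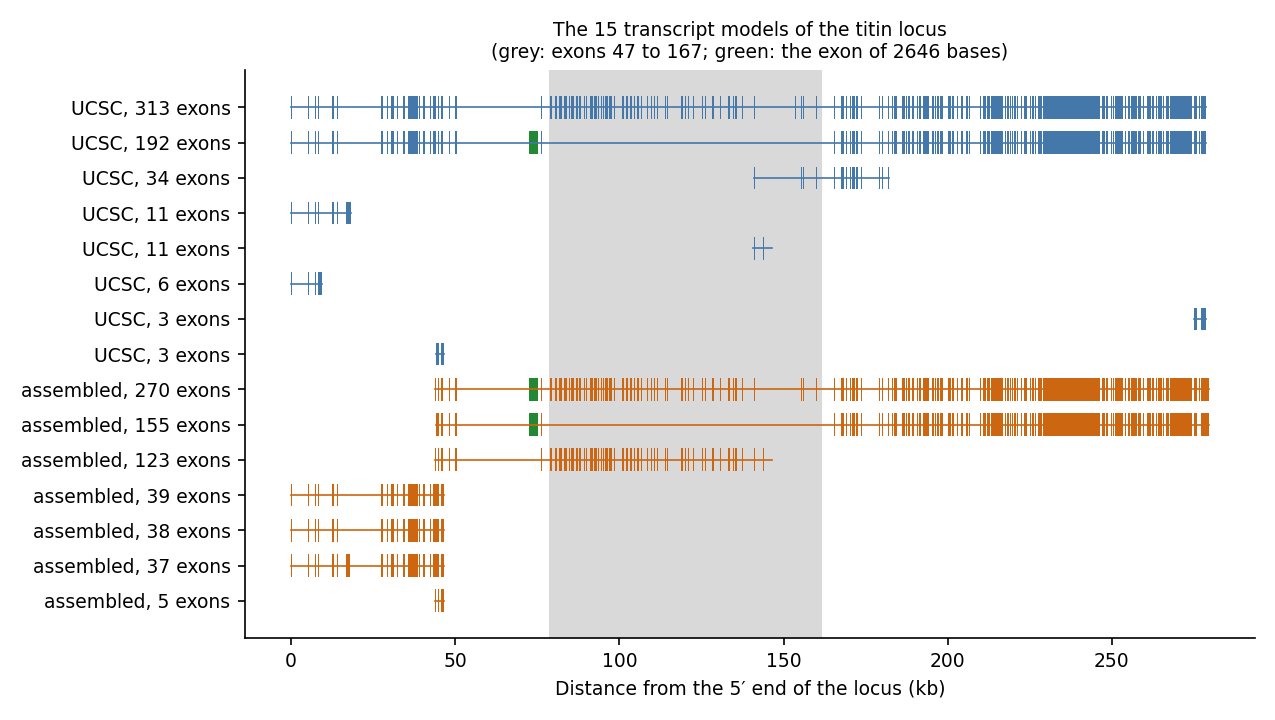
Exons of the 15 transcript models against distance from the 5′ end of the locus in kb, with UCSC models in blue and assembled models in orange. The 2646-base exon, in green, is in 3 models. Of the models that run across the shaded block of exons 47 to 167, those of 192 and 155 exons are empty in it. Some shorter models do not reach the block.

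Every splice junction of the assembled models was already in a UCSC model. The 8 UCSC models carry class code =, the code of an identical intron chain, and the 7 assembled models carry class code j, the code of a model that shares at least 1 junction with a known one but differs in the chain. The locus held 326 distinct introns, all in UCSC models. The assembled models contained 315 of them, 96.6%, and 0 of their introns were outside the UCSC set. The assembled models differ from the UCSC models in how junctions are combined and in where some of the models end. Other ends are shared to the base with a UCSC model, at 76773981 and 76674022. Whether the UCSC models guided the assembly is not known here. Shared junctions and ends are therefore not read as independent of the annotation. Distinct exons numbered 330, of which 325 were in UCSC models.

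No assembled model ran from the first to the last exon, while the 313-exon and 192-exon UCSC models did. Of the 7 assembled models, 3 lie 5′ of exon 41, 3 start in exon 36 or 37 and run toward the 3′ end, with the 123-exon model stopping far short of it, and the 5-exon model lies within exons 36 to 40. Those of 39, 38 and 37 exons start at base 76820604, the first base of exon 1, and all end at base 76773981. Their last exon of 624 bases contains exon 40 and 458 bases of the intron after it. A further exon of 995 bases contains exons 37 and 38 with 473 intron bases. The 38-exon model lacks exon 11, as the 192-exon UCSC model does. The 37-exon model reads through exons 11 to 13 as a stretch of 1440 bases. The models of 270, 123 and 5 exons start inside exon 36 with 133 of its 261 bases. A UCSC model of 3 exons with the same 3′ end at 76773981 matched Ttn-206, which GENCODE lists as a retained intron. In all, 5 models ended at that base.

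The 3′ end reached further than the UCSC models. The models of 270 and 155 exons both end at 76541034, and their last exon has 2353 bases, against 1346 in the UCSC models. The added 1007 bases set the edge of the locus. The longest last exon among the long GENCODE transcripts has 1350 bases. GENCODE transcript Ttn-202, of 45 exons, ends in an exon of 6520 bases, and 0 of the 15 models contained an exon of that width.

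The 121 exons that the N2-B arrangement leaves out differ from the rest of titin in size, frame and codons. Their median width was 184 bases, against 282 for the other exons of the 313-exon model. Widths were a multiple of 3 in 118 of the 121 (97.5%), in 143 of the 190 other internal exons (75.3%), and in 39.8% of 172628 distinct internal exons of UCSC models at all other loci. Exons of such width can be left out or added without changing the reading frame of what follows. The smaller omissions inside models were exon 11 with 138 bases, exons 152 to 154 with 228, exons 156 to 162 with 576 and, in the 155-exon model and a UCSC model of 3 exons, exon 312 with 303, all multiples of 3. These counts are descriptions of the annotation, and no test was made.

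The block is made of 2 unlike parts. The split that left the least squared spread of the codon share below within the parts, a rule chosen after the values were seen, falls after exon 107. Exons 47 to 107 number 61 with a median width of 279 bases, near the size that codes for an immunoglobulin domain. Exons 108 to 167 number 60 with a median of 84 bases. Codons for P, E, V or K made up 29.2% of the codons in the first part and 72.2% in the second, against 32.1% in exons 1 to 46 and 32.6% in exons 168 to 313. Among exons with at least 10 codons, 50 of 120 in the block had a share of 60% or more. Of 191 exons elsewhere, 4 did, namely exons 168 to 171, directly after the block. Exons of exactly 84 bases numbered 17 in the block and 0 in the rest of the model. The 3 with the highest share of P, E, V and K codons are shown because they show the repeat that the N2-B arrangement removes. Whole codons for these amino acids are in capitals and all other bases in lower case, from GENCODE transcript Ttn-205 on GRCm38.
exon 140: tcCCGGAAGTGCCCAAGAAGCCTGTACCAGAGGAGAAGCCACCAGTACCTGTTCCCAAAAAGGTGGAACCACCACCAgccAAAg
exon 138: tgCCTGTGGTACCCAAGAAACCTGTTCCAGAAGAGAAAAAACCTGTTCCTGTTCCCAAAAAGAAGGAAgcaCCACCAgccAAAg
exon 117: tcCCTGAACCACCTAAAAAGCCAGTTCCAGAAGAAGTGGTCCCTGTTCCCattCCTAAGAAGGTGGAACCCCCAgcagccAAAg

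These exons lie at mm9 chr2:76685782-76685865, chr2:76686616-76686699 and chr2:76697971-76698054. Each holds 28 codons by its first base, of which 96.4%, 92.9% and 89.3% code for P, E, V or K. They were in the 313-exon, 270-exon and 123-exon models and in neither model with the N2-B arrangement. The largest exon of titin, exon 275 with 17106 bases at mm9 chr2:76574121-76591226, made up 16.8% of the 313-exon model and was in all 4 models that reach the 3′ end with over 100 exons.

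**Figure D2:**
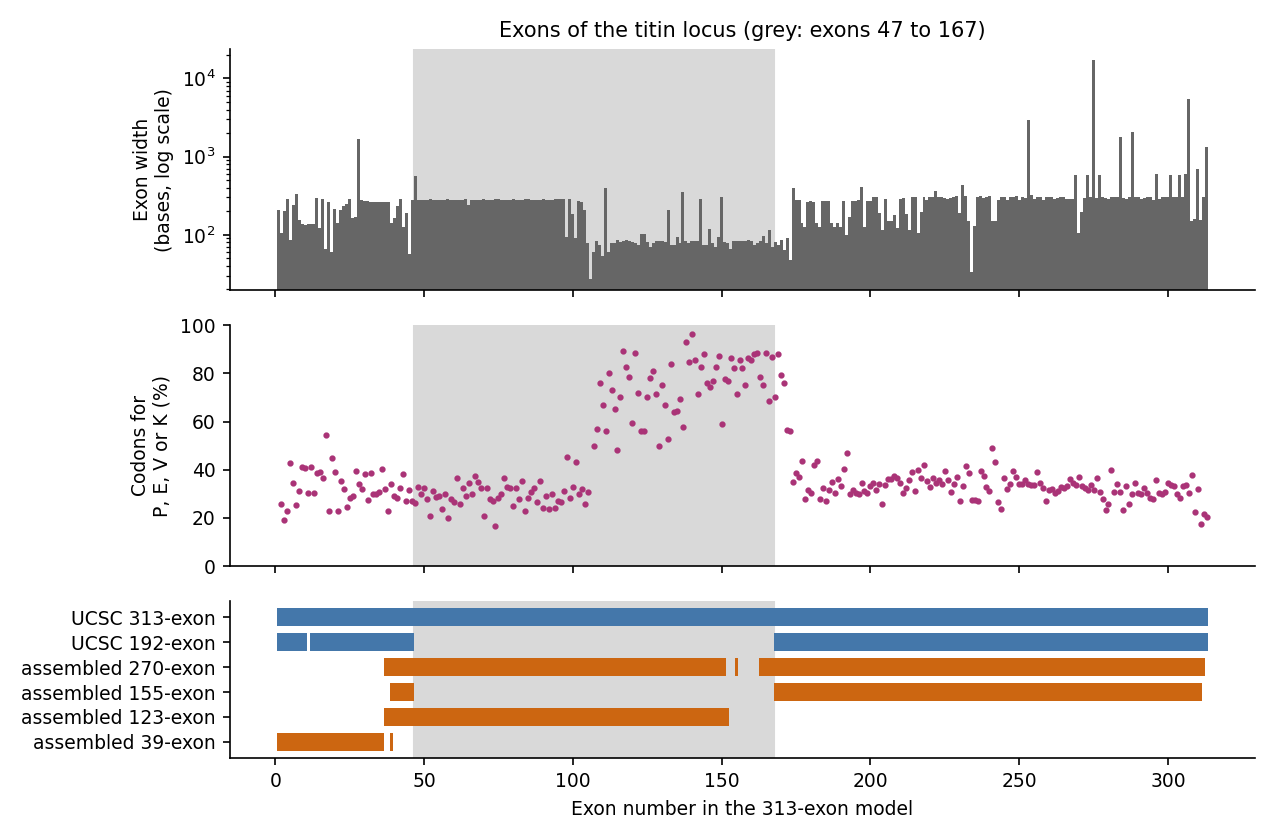
Exon width in bases on a log scale (top), share of codons for P, E, V or K in percent (middle, exons with at least 10 codons) and membership in 6 models (bottom), by exon number in the 313-exon model. Shares of 60% or more lie between exons 109 and 171. The shaded block of exons 47 to 167 is passed over in the 192-exon and 155-exon models, and the 39-exon model ends before it. The 2646-base exon and other exons absent from the 313-exon model have no number in it and are not drawn. Exons that a model has with other ends are not drawn either.

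The 5′ end of the locus is the same in 7 models, of which 3 were assembled. Exon 1 has 210 bases in both the 313-exon model and Ttn-205, and the first base of Ttn-205 is the start site that RefSeq gives for Ttn. The 250 bases before it are shown because all 7 models begin there. They lie on the minus strand of GRCm38 at chr2:76982548-76982797, with the TATAA motif in capitals.
Ttn promoter: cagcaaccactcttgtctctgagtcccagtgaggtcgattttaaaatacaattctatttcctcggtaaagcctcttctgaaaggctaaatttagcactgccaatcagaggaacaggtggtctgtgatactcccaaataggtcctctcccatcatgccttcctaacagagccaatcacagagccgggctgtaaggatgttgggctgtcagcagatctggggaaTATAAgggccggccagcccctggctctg

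TATAA occurred once on the coding strand, with its first base at position -28 from the start site, and TTATA, its form on the other strand, did not occur. Of 32851 RefSeq promoter windows of the same 250 bases, 22.8% held the motif on either strand. On the coding strand between positions -45 and -16, 3.89% did. A match of letters is a description and shows no binding.

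Titin was among the most abundant RNAs of these hearts by read count and ranked lower by count per length. Of normalised read counts, the reads divided by 1 size factor per library, 3RL had 706034, 7LR 1092008, 8R 701734 and 12RL 1105123. Libraries 3RL and 8R were low and close to each other, 7LR and 12RL were high and close to each other, and no value lay between. The mean was 901225 ± 227939 (SD, n = 4), with a highest-to-lowest ratio of 1.57. By mean count the locus ranked 14 of 35299, and 8 when mitochondrial loci were left out. Per kb of the longest UCSC model the mean was 8864 ± 2242 normalised counts (SD, n = 4), which ranked 863 of 26078 loci with such a model. With the 192-exon model as length it was 10999.8 per kb, so the length assumed for the transcript matters.

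The depth behind these values was high. Of whole reads recovered at the locus, 3RL had 591477, 7LR 958903, 8R 617264 and 12RL 700918. Summed over all 35299 loci, the recovered reads numbered between 108345923 and 160670654 per library. Reads assigned to no locus are not among them. Counting error at such depth gives a CV of 0.102% to 0.130%, against a CV of 25.3% between the 4 libraries. As a share of all counts, 3RL had 0.421% (95% Wilson interval 0.4197 to 0.4219), 7LR 0.673% (0.6715 to 0.6741), 8R 0.384% (0.3832 to 0.3851) and 12RL 0.647% (0.6454 to 0.6484). These intervals cover counting error only. The labels number the samples as replicates and do not say how many animals each holds, so the spread given here may be in part technical.

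**Figure D3:**
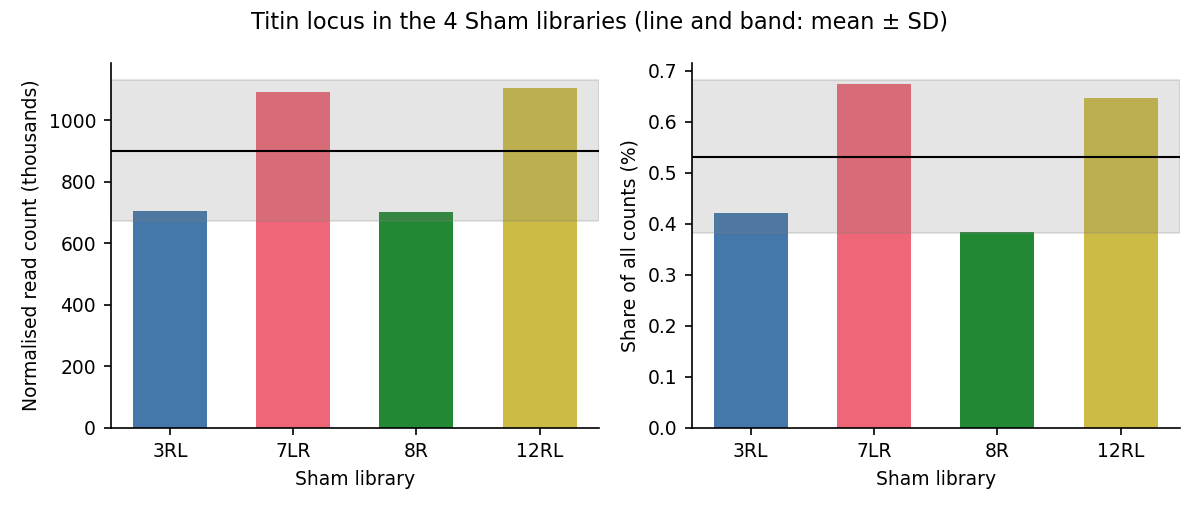
Normalised read count, in units of 1000 (left) and share of all counts in percent (right) of the titin locus in each Sham library, with bars starting at 0. The line and band are the mean and SD of the 4 libraries, 901225 ± 227939 counts and 0.531% ± 0.150. Bars of 7LR and 12RL stand above the mean and those of 3RL and 8R below it.

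The spread of titin between libraries was wide beside that of loci near it in rank by mean count. The 213 loci compared were all those ranked above it, with means up to 19456001, and the 200 ranked next below. Among these 213 the median CV was 8.66%, and 10 had a higher CV than titin. None of the 20 loci with the highest counts had a higher CV: the next was Actc1, cardiac alpha-actin, with 16.4%, and the merged locus of the myosin heavy chains Myh6 and Myh7 had 8.30%. Over all 14424 loci with a mean of 50 or more, titin's CV exceeded that of 89.6%, and 20.7% of these loci had a highest-to-lowest ratio of at least 1.5. A ratio at least as large as titin's was found at 2399 of the 14423 other loci, or 16.6%. No single library stood apart from the other 3 at the titin locus, where the larger gap at an end of the range was 0.0325 of the range and below Dixon's critical value.

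The length of the transcript moved with this pattern. On the log2 scale titin deviated from its own mean by -0.32 in 3RL and -0.33 in 8R, and by 0.31 in 7LR and 0.33 in 12RL. Over the 367 other loci with a mean of 50 or more and a longest UCSC model above 8 kb, the median deviations were -0.11, 0.15, -0.18 and 0.15 in 3RL, 7LR, 8R and 12RL, with the same signs. Over 885 loci with models up to 1 kb they were 0.04, -0.14, 0.19 and -0.09, with the opposite signs. Titin lay beyond most long loci too: 4.36% of the loci above 8 kb were lower in 3RL and 15.8% in 8R, while 89.1% were lower in 7LR and 92.4% in 12RL. Its longest UCSC model exceeds that of every other locus with a mean of 50 or more, the next having 43520 bases, so no locus of like length could be set beside it. When the running median along length was subtracted, the deviations were -0.18, 0.14, -0.12 and 0.15, and the CV was 11.9%. The part of length in the pattern was not tested.

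**Figure D4:**
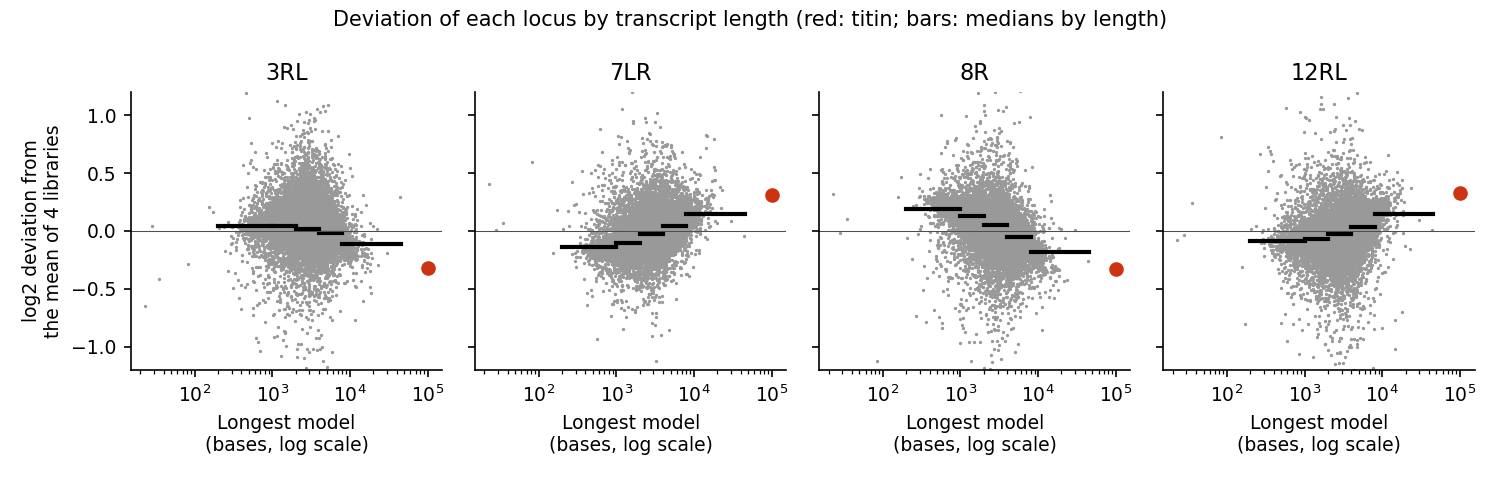
For every locus, log2 deviation from its own mean against the longest UCSC model in bases on a log scale, for loci with a mean of 50 or more, 1 panel per library. The red point is titin, at -0.32, 0.31, -0.33 and 0.33, and the black bars are medians by length bin, which for the longest loci have the same sign as titin. Points beyond the ends of the vertical axis are not drawn.

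Loci with a pattern like that of titin had longer models than most. Likeness was measured as the root mean square (RMS) distance between the log2 deviations of 2 loci over the 4 libraries, so 0 is an identical pattern. Among 14423 other loci with a mean of 50 or more, 131 lay within 0.1 of titin, or 0.908%, and the median distance was 0.374. The number rests on the distance and scale chosen, being 21 within 0.05, 940 within 0.2 and 1201 within 0.1 once the length trend was removed. Of loci with models above 8 kb, 36 of 367 (9.81%) did, and of those up to 1 kb, 0 of 885. The median longest model was 5019 bases in the 109 alike loci that have a UCSC model, against 2891 over all such loci.

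The 5 loci nearest to titin with a mean of 1000 or more were Kmt2c, Mdn1, Tns1, Ctnna3 and Gatad2b. Kmt2c, a histone methyltransferase of 59 exons on chromosome 5 (24777612 to 25004601), had normalised counts of 8285, 12925, 8271 and 12979 in 3RL, 7LR, 8R and 12RL, at a distance of 0.00489. Mdn1, an AAA-family ATPase of ribosome assembly with 102 exons, had 2522, 3973, 2551 and 4140.4 in the same order. The longest UCSC models of these 2 loci have 16820 and 17959 bases. Tns1, the focal adhesion protein tensin 1, was far more abundant, with 122929.9, 184990.5, 121206 and 196464. Ctnna3, an alpha-catenin of the cardiac intercalated disc, had a distance of 0.0293, and Gatad2b, a subunit of the NuRD chromatin complex, 0.0319. The longest UCSC models of these last 3 have between 1937 and 3851 bases. The full length of their transcripts was not measured, and the part of length in their pattern was not tested. In all 5, 3RL and 8R were the lower and 7LR and 12RL the higher libraries, which follows from choosing them by nearness to titin's pattern.

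Genes whose products work with titin were, by the median, about as far from its pattern as loci in general. Of 23 listed genes, 20 were found by structure. Myh6 and Myh7 share 1 locus, Ankrd23 and Capn3 are merged with other genes, and Ankrd2, a muscle ankyrin-repeat protein, had a mean of 43.1, too low to enter. The other 15 genes were on 17 loci, because Nebl is split over 3. Of these 17, 1 lay within 0.1 of titin's pattern, where the share over all loci was 0.908%. A highest-to-lowest ratio of at least 1.5 was met by 5 of 17, where the share over all loci was 20.7%. The median distance of the 17 was 0.367, near the 0.374 of all loci. All 17 have UCSC models of 899 to 5613 bases, far below titin.

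At the M-band, where titin's C-terminal end is anchored, the myomesins differed. Myom2 had normalised counts of 202768, 288224, 196424 and 279837 in 3RL, 7LR, 8R and 12RL, so 3RL and 8R were the low libraries as for titin, while 7LR was the highest in place of 12RL, at a distance of 0.0711. Myom1 had 261250.0, 280318, 289258 and 302709.8, with 3RL lowest and 12RL highest. Nebl, which encodes the Z-disc protein nebulette, had its 2 lesser loci at distances of 0.120 and 0.136, with 8R lowest and 12RL highest. The third and most abundant Nebl locus had 30929, 34432, 29884 and 36767, with the same lowest and highest library. Whether these 3 loci are separate transcripts or pieces of 1 gene model is not shown by the counts.

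Other Z-disc partners had CVs between 5.87% and 10.9%. Actn2, alpha-actinin 2, which crosslinks titin and actin, had 364073 as its mean and a CV of 6.06%. Ldb3, the PDZ and LIM protein also called cypher, had 165025, 150373, 172417 and 168574. For Myoz2 and Csrp3, which encode calsarcin-1 and muscle LIM protein, 8R was the highest and 7LR the lowest library. Mypn, encoding myopalladin, was highest in 12RL at 32465, against 26398 to 28606 in the others.

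Ankrd1, Cryab, Trim63, Trim55, Fhl1 and Fhl2 were highest in 8R, the library in which titin was lowest, as were the Z-disc partners Actn2, Ldb3, Myoz2 and Csrp3. Ankrd1, an ankyrin-repeat protein that binds titin's I-band and is induced by stretch, had 126219, 165303, 202065 and 117923 in 3RL, 7LR, 8R and 12RL. Cryab, the small heat shock protein that binds titin's spring, had 211251, 171893, 264180.3 and 173566. Trim63, the ubiquitin ligase MuRF1 that binds near the M-band, had 27373, 31109, 42758 and 24329.7. Its relative Trim55 ran only from 13560.2 to 14852. Fhl2, a LIM protein that binds titin, had a mean of 185383 with a CV of 9.08%, and Fhl1 one of 16281 with 5.50%. Over the 17 partner loci, 8R was the highest library at 10, where it was highest at 38.6% of all 14424 loci and at 41.6% of the 11291 loci with models in the partners' range of length. 12RL was the highest at 5 of 17, against 18.8% and 16.4%. With so few loci, nothing about the partners is read from these counts.

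Rbm20, the splicing regulator of titin, had normalised counts of 43408, 52672, 40899 and 49453 in 3RL, 7LR, 8R and 12RL. Its low and high libraries were those of titin, with a smaller ratio of 1.29 and a distance of 0.189. No isoform level per library can be had from counts per locus, so Rbm20 could not be set against the use of titin's I-band exons.

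**Figure D5:**
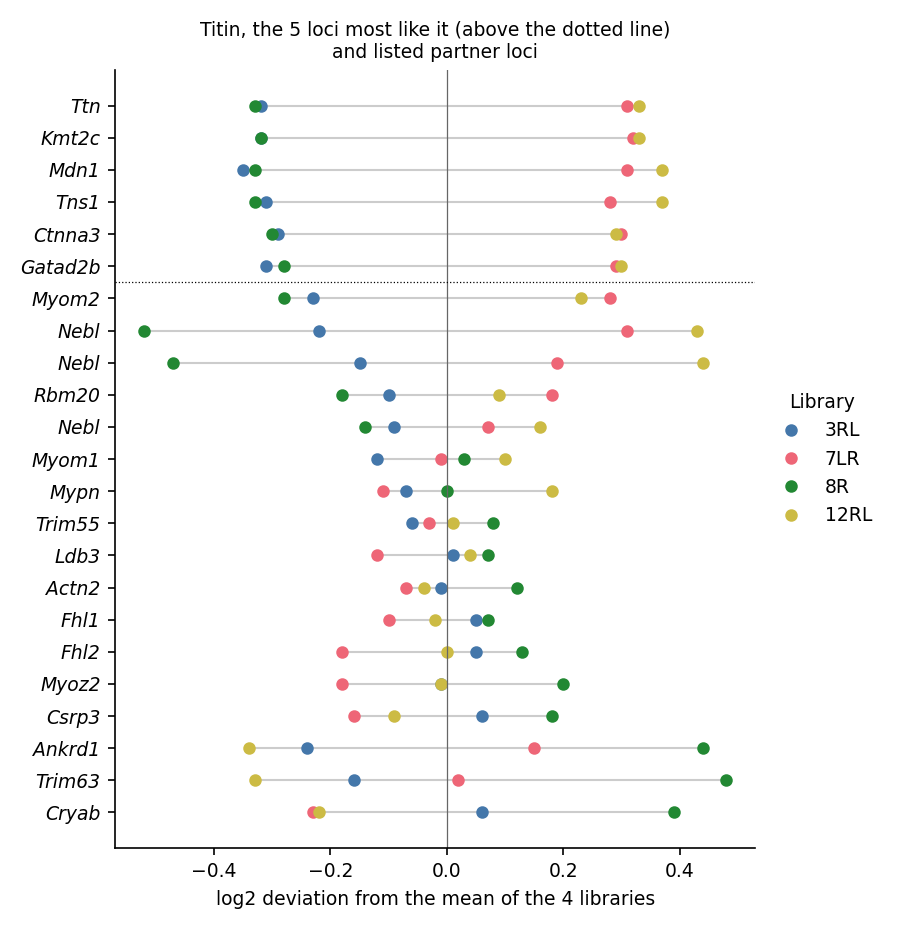
Deviations by library on the log2 scale, each from the locus's own mean, for titin, the 5 loci with the most similar pattern and the 17 partner loci, ordered by distance from titin. Above the dotted line 3RL and 8R lie together on the left and 7LR and 12RL on the right. From Trim55 downward 8R is the rightmost point in every row. Rows were chosen or ordered by distance from titin, so these arrangements are not separate results.

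Neighbouring loci had far lower counts. The nearest locus with a UCSC model on the 3′ side, XLOC_017025 at chromosome 2, 76513542 to 76535570, lies 5463 bases away on the plus strand, so its transcripts run toward titin's 3′ end. It had 3118, 3124, 3546 and 2986 normalised counts, or 0.354% of titin's mean, with 8R highest. On the 5′ side, Ccdc141 at 76848061 to 77008693 lies 27456 bases away on the same strand as titin. It had 27067, 33369, 26042 and 31553 normalised counts, 3.27% of titin's mean, with 3RL and 8R low as for titin, 7LR highest and a ratio of 1.28. The nearest loci without a UCSC model had means of 8.21 and 7.19, at 82418 and 325095 bases. GENCODE M21 lists 1 gene overlapping Ttn on GRCm38, on the opposite strand, Gm13938, and the transcript models used here hold no locus for it. Since it is not known whether reads were counted by strand, reads from either strand may be in titin's count.

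The tissue was checked by lists of marker genes. Cardiomyocyte loci were high, with mean normalised counts of 1388903 for Actc1, 980233 for Myl2 and 376766 for Ryr2. Of the skeletal muscle list, the fast myosins Myh4 and Myh1 had 0 in all libraries and a mean of 5.81, while Ckm and Acta1, which heart also expresses, had 166171 and 31546. Summed over 5 fibroblast genes the counts ran from 88308 to 110421, over 4 endothelial genes from 97703 to 133727, over 3 smooth muscle genes from 19939 to 27372 and over 3 macrophage genes from 7500.3 to 10085. The macrophage gene Cd68 was in a merged locus, and the erythroid genes were merged or not found. The fibroblast sum was 110378, 94290.0, 110421 and 88308 in 3RL, 7LR, 8R and 12RL, higher in the libraries where titin was lower. Its members differed: Col1a1, Col1a2 and Postn were higher in those libraries, Pdgfra had titin's order, at 5594, 5834, 4935 and 6360.3, and Dcn, the most abundant of the 5, was higher in 12RL at 53691 than in 3RL at 51752. The sum of the 3 cardiomyocyte loci above, 2800586, 2504464, 3065794 and 2612764, was higher in the same libraries as the fibroblast sum. Within that sum Ryr2, the calcium release channel, had titin's order, at 316127, 423410.4, 294346 and 473182. Of the 7 cardiomyocyte genes listed, Myh6, Tnnt2 and Tnni3 were in merged loci and Pln was not found. The Myh6 and Myh7 locus, larger than the sum, was lower in 3RL and 8R, at 4389572, 5176832, 4854819 and 5309783. The Tnni3 locus was higher in those libraries, and the Tnnt2 locus followed neither pattern. The sum therefore does not stand for all listed cardiomyocyte genes. The part of either sum in titin's level was not tested, and in bulk tissue fewer cardiomyocytes and less titin RNA per cell cannot be told apart.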

How the data were processed

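Per the labels' protocols, poly(A) RNA of 4 Sham samples was read from both ends for 100 bases. The authors deposited signal values per locus, which are read counts divided by 1 size factor per library, and pooled transcript models on mm9. The submitters' processing notes name DESeq, HTSeq 0.5.4p2, Cufflinks 2.0.2 and TopHat2 2.0.5. Of strandedness and counting mode nothing was found in the sources used here.

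Whole reads were recovered, since 100% of values were multiples of their library's smallest value within 0.001. They served as depth, and with 1 group no test was run. Deviations used log2(value + 1), and comparisons between loci used a mean of 50 or more. Loci were named by equal intron and exon widths on the same chromosome and strand in GENCODE M21 (GRCm38), for UCSC models of 3 or more exons. Of 18321 such loci, 17323 (94.6%) matched, 596 of them to several symbols. Such names rest on structure. Codons came from Ttn-205 and Ttn-201. Titin was named with its neighbours, the 5 loci of mean 1000 or more with the nearest pattern, and a list of partners. The members and lists were chosen with earlier results of these data known. Steps were tested on simulated data. Alternatives were TMM (edgeR 4.0.16), other scalings, minimums, distances, a length trend over 501 loci and leaving out libraries. Python 3.11.15, numpy 2.4.6 and pandas 2.3.3 were used.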

Additional observations from a re-analysis of the deposited data

How the results depend on the processing

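Under TMM scaling, the median of ratios and equal table totals, titin's mean reached at most 906898, its CV 28.2% and its highest-to-lowest ratio 1.75, and a pseudocount of 10 left the ratio at 1.57. Without 1 library the mean ran from 833259 to 967722, the CV from 23.4% to 27.7%, the ratio from 1.56 to 1.57, the share of counts from 0.484% to 0.580%, the rank from 12 to 15 and the share of loci with a ratio of at least 1.5 from 14.3% to 16.7%, since fewer libraries give a smaller range. With the trend along length removed the CV was 11.9% and the ratio 1.26. The trend at titin rests on shorter loci. Leaving out mitochondrial loci gave a share of 0.764% and a rank of 8, and division by the union length of exons or by the longest UCSC model gave ranks of 538 and 863. The share of loci with a ratio of at least 1.5 came to 36.5% with loci of mean 10 or more, 13.3% from 200 and 55.1% with no minimum. The number of loci alike to titin was 82 at a minimum mean of 1000, 21 within 0.05, 940 within 0.2 and 1201 with the length trend removed, and scaling cannot change it. UCSC models alone number 8. Leaving out mitochondrial loci from the rank and removing the length trend from the number of alike loci were added after seeing the data. Levels of loci overlapping titin gave no value, because 0 loci overlap it. No paired analysis was possible because the 4 libraries belong to the Sham group alone.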
